A study of Homo sapiens with 18 samples.

Results

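The 78 genes described here encode the mitochondrial ribosomal proteins: every protein-coding row of the count table whose symbol is MRPL followed by a number, or MRPS followed by a number with or without a letter A to C. They are 78 of 57808 rows, 1 Ensembl identifier each. By their known place in the human mitoribosome, 51 belong to the large subunit, MRPS18A and MRPS30 among them in spite of their names, and 26 to the small subunit. The last member, MRPS36 (KGD4 in current RefSeq), is a subunit of the 2-oxoglutarate dehydrogenase complex that had been named as a ribosomal protein. The cells were the human embryonic stem cell line MEL1 INSGFP/W, in which GFP is driven from the insulin locus. There were 9 groups of 2 libraries. Undifferentiated cells (hPSC) and definitive endoderm (DE), both labelled RPL22-FLAG, were profiled by RNA-seq, by total ribosome footprints and by footprints pulled down with anti-FLAG (FLAG footprints). Stem cell-derived beta-like cells (sBC) were sorted by GFP. RNA-seq was made of GFP+ and of GFP- sBC, whose genotype is given only as GFP+ or GFP-. FLAG footprints were made of GFP+ sBC that carried RPL22-FLAG by lentivirus. Whether replicate libraries were grown as separate cultures is not given, and p-values then measure the spread between these libraries alone. The stage, the way RPL22-FLAG was introduced and the sort all differ between sBC and the 2 earlier stages and cannot be told apart.

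Mitochondria hold their own ribosome, which makes the few proteins encoded by mitochondrial DNA, all of them subunits of the respiratory chain and ATP synthase. The protein subunits of that ribosome are encoded in the nucleus, translated on cytosolic ribosomes and imported. Their RNA-seq signal is therefore the supply of nuclear mRNA, and footprints on them come from cytosolic ribosomes, of which RPL22 is a large subunit protein. The mitoribosome needs its subunits together with mitochondrial rRNA, assembly factors and its own initiation, elongation and release factors. In the beta cell the respiratory chain couples glucose metabolism to insulin secretion.

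Promoters of 70 of the members were found in RefSeq (GRCh38.p14, 250 bases before to 50 after each start), and 5 of them are shown upstream of the start because the results below turn on these genes. MRPS34, MRPL20 and MRPL3 were lower in sBC, and MRPL22 and MRPS6 rose in DE. Capitals mark every match, on either strand, to the ETS family motif CCGGAAG (its reverse complement is CTTCCGG) or to the SP family motif GGGCGG. Each line holds the 100 bases before the start, 5′ to 3′ on the strand of the gene.
MRPS34 (chr16:1773135-1773234, minus strand): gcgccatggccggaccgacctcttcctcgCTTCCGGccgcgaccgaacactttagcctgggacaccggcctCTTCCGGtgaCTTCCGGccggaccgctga
MRPL20 (chr1:1407294-1407393, minus strand): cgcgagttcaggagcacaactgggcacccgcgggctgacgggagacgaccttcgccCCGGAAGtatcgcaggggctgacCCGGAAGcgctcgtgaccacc
MRPL3 (chr3:131502972-131503071, minus strand): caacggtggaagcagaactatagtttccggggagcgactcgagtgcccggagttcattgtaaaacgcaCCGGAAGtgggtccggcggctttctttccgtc
MRPL22 (chr5:154940973-154941072, plus strand): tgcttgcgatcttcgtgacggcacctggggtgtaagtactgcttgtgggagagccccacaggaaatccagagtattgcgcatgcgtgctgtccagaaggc
MRPS6 (chr21:34073478-34073577, plus strand): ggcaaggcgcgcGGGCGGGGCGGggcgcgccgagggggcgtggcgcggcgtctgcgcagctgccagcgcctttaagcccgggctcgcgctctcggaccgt

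The first 3 windows hold 3, 2 and 1 matches to CCGGAAG, while the windows of MRPL22 and MRPS6 hold none. These genes were chosen after their values were seen, and the motif did not separate members by direction. Within the 300 bases MRPL40, MRPL52, MRPL53 and MRPS18A, which also rose in DE RNA, held CCGGAAG, and MRPS25 and MRPS36 did not. MRPL11 and MRPL12, which were lower in sBC, did not hold it, and MRPS12 did. Over the whole 300 bases, CCGGAAG was present in 29 of 70 member promoters (41.4%), against 14.2% of the 15843 promoters in the table. The YY1 motif AAGATGGCG was present in 13 of 70 (18.6%), against 2.7% of all. The NRF1 motif (GCGCA, any base, GCGC) was present in 11.4% of member promoters and in 8.6% of all, GGGCGG in 61.4% and 58.5%, and TATAAA in 4.3% and 9.6%. Both strands were searched, and copies of a motif were allowed to overlap, as in the window of MRPS6. A match describes letters and is not a binding site. No promoter of MRPL2, MRPL10, MRPL13, MRPL15, MRPL21, MRPL23, MRPL35 or MRPS28 was used. The 29 members with CCGGAAG had a median log2 fold change in RNA of -0.21 in DE against hPSC and of -1.38 in GFP+ sBC against hPSC, and the 41 members without it had medians of -0.44 and -1.41. These differences were not tested.

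The libraries held 6.61 to 92.53 M estimated counts (M, 1000000), and the 78 genes took 0.1259% to 0.5053% of them. RNA libraries of DE and hPSC were the deepest (79.77 to 92.53 M) and the FLAG libraries of sBC (8.73 and 7.59 M) and DE replicate 1 (6.61 M) the shallowest. All 78 genes passed the filter on low counts in every comparison, and the smallest count of any member in any library was 9. In RNA of DE against hPSC all 4 pluripotency markers fell and all 5 endoderm markers rose. In RNA of GFP+ sBC against hPSC 5 of 6 beta cell markers rose, and the sixth, the beta cell transcription factor MAFA, had 0.287 and 1.36 CPM in GFP+ sBC and 6.25 and 6.24 CPM in hPSC. The insulin gene INS had 4400 and 4830 CPM in GFP+ sBC RNA and 3740 and 2890 CPM in its FLAG footprints. GCG, the glucagon gene of alpha cells, had 30800 and 20200 CPM in GFP+ sBC RNA and 53100 and 28700 CPM in its FLAG footprints, and was at 0 in DE and hPSC. Proliferation markers (MKI67, TOP2A, CDK1 and UBE2C) summed to 956 and 909 CPM in hPSC RNA, to 656 and 720 CPM in DE RNA, and to 5.65 and 2.34 CPM in GFP+ sBC RNA. Several libraries stood apart. In total footprints of DE replicate 1, nuclear protein-coding genes held 40.5% of the counts, against 75.96% to 81.75% in the other total footprint libraries. In FLAG footprints these genes held 54.56% and 62.82% of the counts in GFP+ sBC, against 84.12% to 90.37% in DE and hPSC, and all FLAG comparisons of sBC rest on those 2 libraries. The part of this difference in the results was not tested. In RNA of GFP- sBC replicate 1, mitochondrially encoded mRNAs held 0.417% of the counts, against 4.3272% in GFP- replicate 2. Of the members, 32 overlap another annotated gene and 42 have pseudogenes (106 in all), so that some reads may have been assigned to a neighbour or copy. Fewer cells of a type and less RNA per cell cannot be told apart in these bulk libraries.

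The summed level of the 78 genes in RNA, in counts per 1000000 (CPM) normalised by TMM (edgeR's scaling of library sizes), was 5728 and 6083 CPM in hPSC, 4392 and 4483 CPM in DE, and 2027 and 2138 CPM in GFP+ sBC. The 3 stages did not overlap and followed the order of differentiation. FLAG footprints gave the same order, with 4904 and 5156 CPM in hPSC, 3177 and 3469 CPM in DE, and 2190 and 1902 CPM in GFP+ sBC. In total footprints, DE had 2396 and 2520 CPM and hPSC had 3404 and 3586 CPM. The heat map of all members shows that this came from most genes and not from a few abundant ones.

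**Figure D1:**
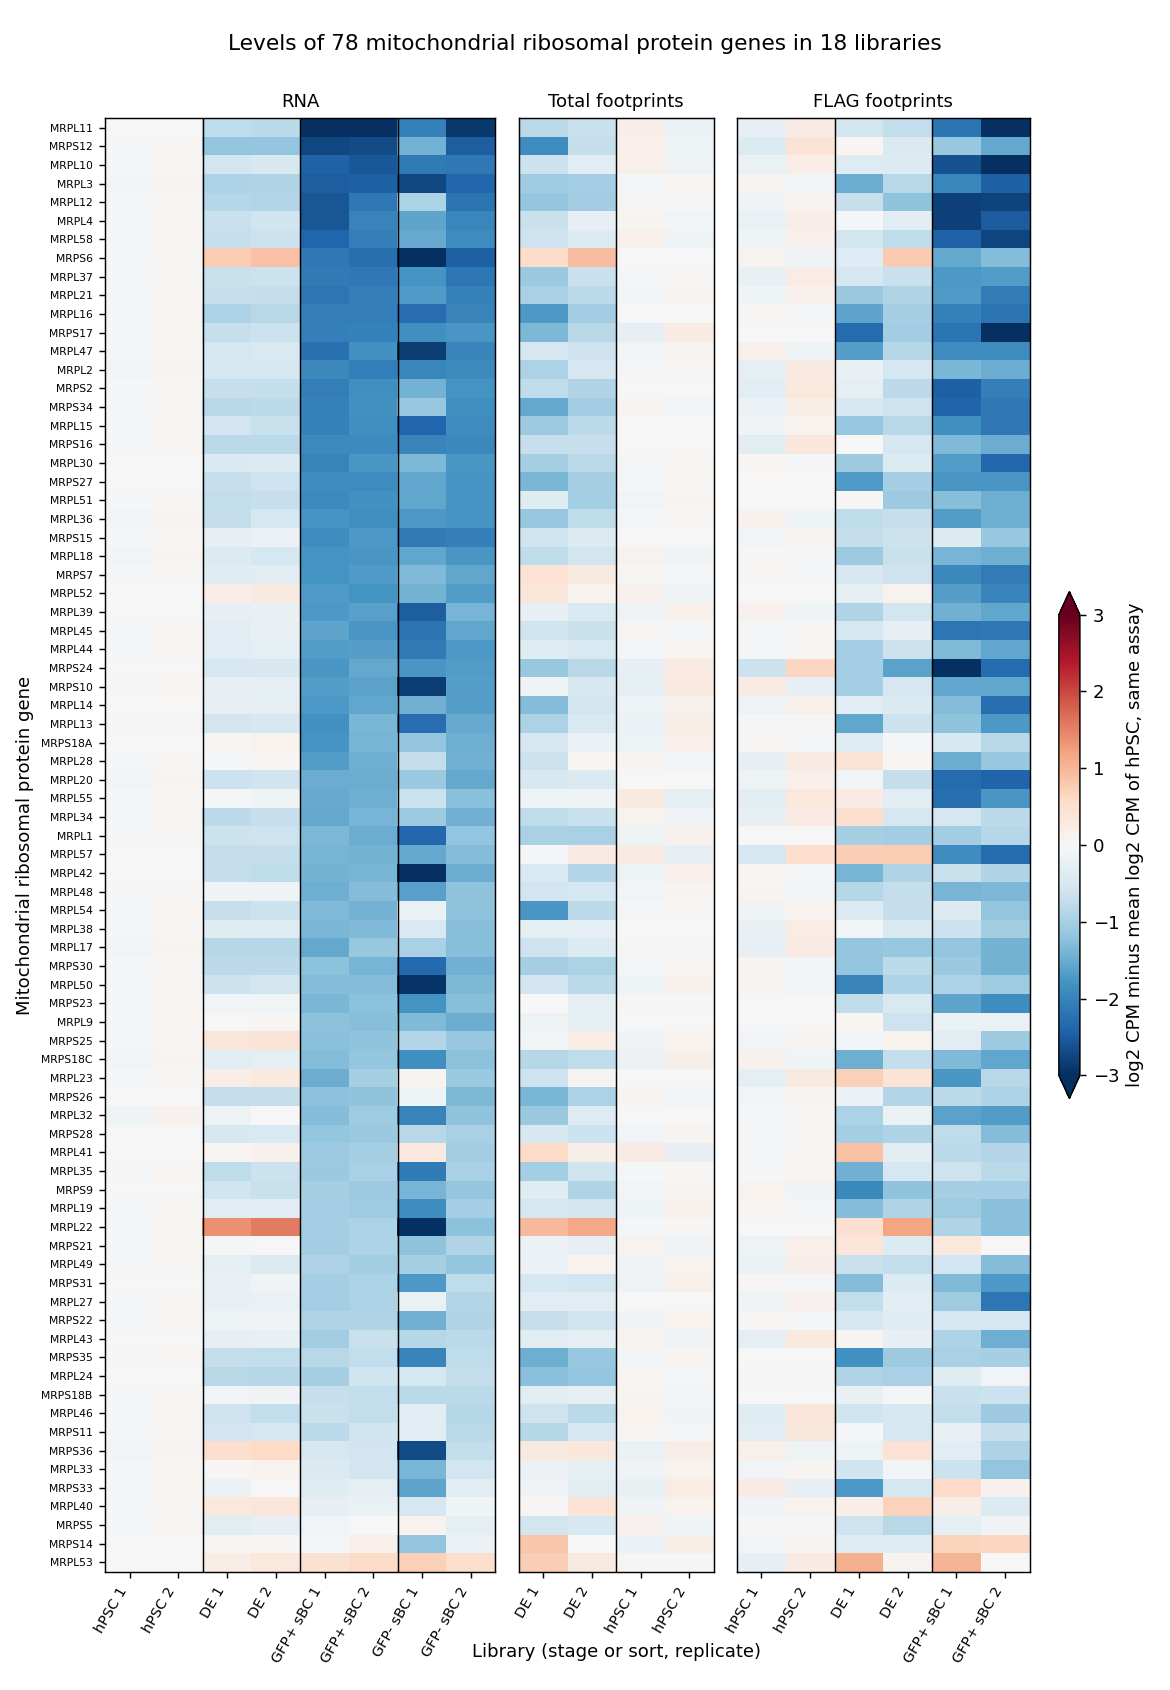
Each row is 1 of the 78 genes and each column 1 of the 18 libraries, and colour is the log2 CPM minus the mean log2 CPM of the 2 hPSC libraries of the same assay, with colours ending at the scale's limits. Rows run from the lowest (MRPL11) to the highest (MRPL53) log2 fold change of GFP+ sBC against hPSC in RNA. Blue covers nearly all rows in sBC, MRPL22 is red in every DE column, MRPS6 is red in DE RNA and total footprints but not in FLAG replicate 1 of DE, and GFP- replicate 1 departs from GFP- replicate 2 in both directions.

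In DE against hPSC, 55 of the 78 genes fell and 9 rose in RNA (edgeR quasi-likelihood test, Benjamini-Hochberg adjusted p under 0.05 over all genes). Among the 20634 genes tested, 36.8% fell and 38.7% rose, so the members' 70.5% and 11.5% leaned to the lower side. Their median log2 fold change was -0.43 and that of all genes 0.01. MRPS12, the protein of the decoding centre of the small subunit, had 27.1 and 27.3 CPM in DE and 58.5 and 64.0 CPM in hPSC. The libraries did not overlap, and its log2 fold change of -1.12 (SE 0.06, adjusted p = 2.92e-08, edgeR) was the lowest of the members. MRPL3, which lies near the peptidyl transferase centre, had 145 and 146 CPM in DE and 260 and 290 CPM in hPSC (log2 fold change -0.87, SE 0.05, adjusted p = 1.12e-07, edgeR). MRPL16, another protein near that centre, had 45.3 and 48.6 CPM in DE and 82.9 and 89.4 CPM in hPSC. MRPL12, the stalk protein to which mitochondrial translation factors bind, had 87.9 and 86.3 CPM in DE and 153 and 163 CPM in hPSC. Both fell in all library pairs, with log2 fold changes of -0.82 and -0.81.

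A small group went the other way in DE. MRPL22, which lines the exit of the peptide tunnel, had 120 and 137 CPM in DE RNA and 44.6 and 48.4 CPM in hPSC RNA. Its libraries were far apart, and its log2 fold change of 1.52 (SE 0.07, adjusted p = 8.04e-08, edgeR) was the highest of the members. MRPS6, a small subunit platform protein, had 149 and 162 CPM in DE and 86.3 and 89.4 CPM in hPSC (log2 fold change 0.87, SE 0.05, adjusted p = 1.03e-07, edgeR). The gene SLC5A3, an inositol transporter whose annotated span overlaps that of MRPS6, moved with it, with 64.7 and 67.8 CPM in DE and 29.1 and 23.8 CPM in hPSC. Whether reads were shared between them was not tested. MRPS36, the dehydrogenase subunit, averaged 41.9 ± 1.56 CPM in DE and 28.6 ± 2.38 CPM in hPSC (SD, n = 2 each), with a log2 fold change of 0.60. MRPS25, a small subunit protein without a bacterial counterpart, had 69.1 and 70.0 CPM in DE and 51.3 and 56.0 CPM in hPSC (log2 fold change 0.43). The other 5 that rose were MRPL40, MRPL53, MRPL23, MRPL52 and MRPS18A, with log2 fold changes of 0.13 to 0.40. The call of MRPS18A was lost with DESeq2, with DESeq2's size factors, and with protein-coding nuclear genes alone in the fit. The DE and hPSC RNA replicates were very close (the SD of the members' log2 ratio of replicate 1 to 2 was 0.06 in DE and 0.05 in hPSC). When the spread was instead shared with the sBC libraries, in a fit of all 8 RNA libraries, 17 members fell and 1 rose, and 6561 genes in place of 15591 were called. Of the members that rose, all but MRPS6 lost their call in that fit, MRPL22 included. MRPL12 was among the members that fell and lost theirs.

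Footprints moved the same way as RNA in DE. In total footprints 34 members fell and 2 rose, against 16.9% and 17.2% of the 15454 genes tested, and the median was -0.56 (all genes 0.03). The lowest were MRPL16, MRPS35, MRPS34 and MRPL24. MRPL16 had 16.1 and 25.6 CPM in DE and 52.8 and 53.2 CPM in hPSC (log2 fold change -1.34, SE 0.25, adjusted p = 0.0148, edgeR). MRPS34, a small subunit protein specific to mitochondria, had 19.9 and 27.8 CPM in DE and 60.8 and 54.1 CPM in hPSC (log2 fold change -1.26). The 2 members that rose were the same pair as in RNA. MRPL22 had 88.5 and 102 CPM in DE and 44.4 and 46.4 CPM in hPSC (log2 fold change 1.07, SE 0.15, adjusted p = 0.00768, edgeR), and MRPS6 had 88.9 and 115 CPM in DE and 60.2 and 60.2 CPM in hPSC (log2 fold change 0.76, SE 0.18, adjusted p = 0.0279, edgeR). RNA and total footprints share no library, and across the 78 genes their changes had the same sign in 70, 61 of them lower in both (Pearson r 0.83, described across genes and not across replicates). Over 12565 protein-coding genes r was 0.89. The number of members that fell rests on both hPSC libraries: without either one, none was called, and the counts of all genes called were 201 and 73 in place of 5276.

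In FLAG footprints of DE against hPSC, 22 members fell and none rose, against 12.5% and 9.78% of the 16018 genes tested. The median was -0.58 (all genes -0.07). The lowest past the threshold with separate libraries were MRPS9, MRPS35, MRPL50 and MRPS27, of which MRPS9, a protein of the small subunit head, had 29.8 and 49.0 CPM in DE and 123 and 105 CPM in hPSC (log2 fold change -1.53, SE 0.28, adjusted p = 0.0101, edgeR). MRPL22 had 99.6 and 159 CPM in DE and 69.7 and 71.1 CPM in hPSC, which did not overlap and did not pass the threshold (log2 fold change 0.88, SE 0.28, adjusted p = 0.061, edgeR). MRPS6 had 71.7 and 161 CPM in DE and 102 and 86.9 CPM in hPSC, and these libraries overlapped. Without DE replicate 1, 7 members fell and 1 rose, and without either hPSC library 1 fell.

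**Figure D2:**
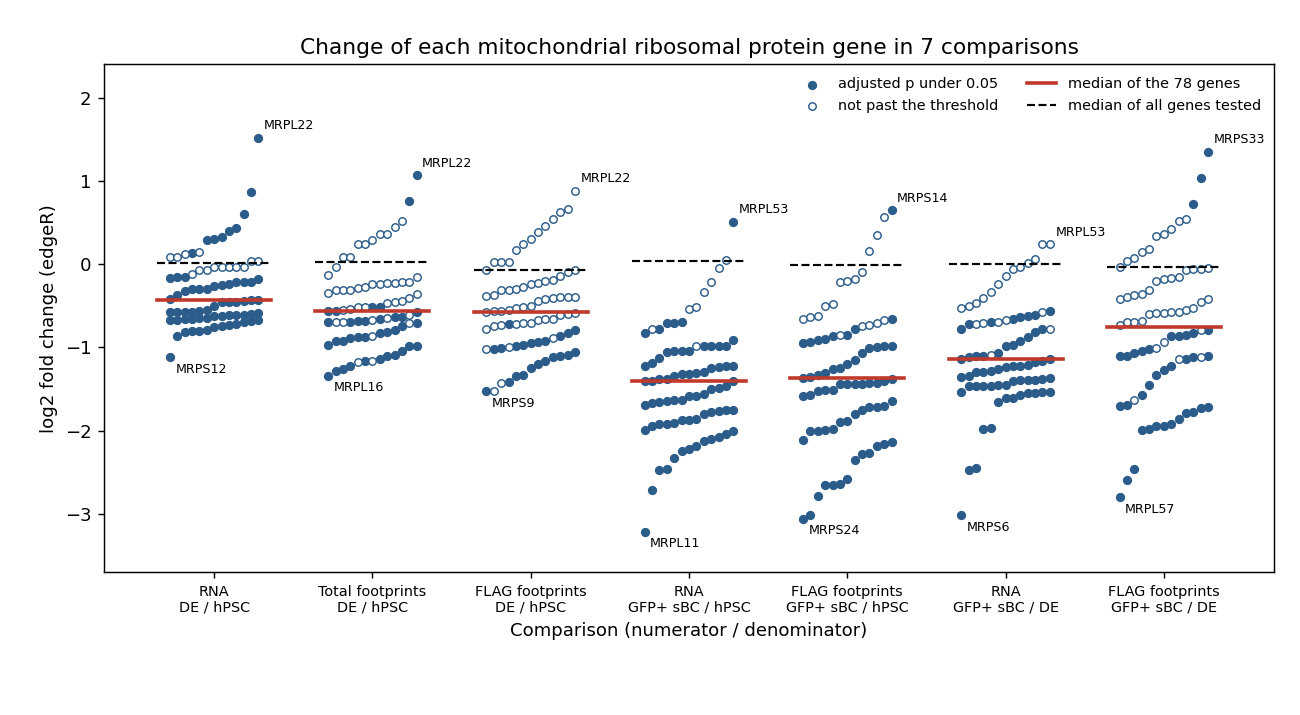
Each point is the log2 fold change of 1 of the 78 genes in 1 of 7 comparisons, filled where the adjusted p was under 0.05, with the median of the 78 genes (solid line) and of all genes tested (dashed line). Points in a column are spread sideways only to separate them. The medians of the members lie between -1.41 and -0.43, below those of all genes in each comparison, and MRPL22 is the highest point in all 3 comparisons of DE with hPSC.

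In GFP+ sBC against hPSC the fall was wider and larger. In RNA 69 of the 78 genes fell and 1 rose, against 30.9% and 30.4% of the 23321 genes tested, and the median was -1.41. The median of all genes was 0.04 and that of protein-coding nuclear genes -0.24, of which 37.3% fell and 29.1% rose. With protein-coding nuclear genes alone in the fit, the members' median was -1.11. MRPL11, of the GTPase-associated centre, had 14.3 and 15.5 CPM in GFP+ sBC and 137 and 141 CPM in hPSC (log2 fold change -3.22, SE 0.30, adjusted p = 9.07e-05, edgeR). MRPL10, which holds the stalk, averaged 18.3 ± 1.08 CPM in GFP+ sBC and 102 ± 6.63 CPM in hPSC (SD, n = 2 each), with a log2 fold change of -2.48. MRPL12 had 26.8 and 35.9 CPM in GFP+ sBC and 153 and 163 CPM in hPSC (log2 fold change -2.33). No library of GFP+ sBC came near the hPSC level in any of the 3. MRPS12 had 9.20 and 9.51 CPM in GFP+ sBC and 58.5 and 64.0 CPM in hPSC (log2 fold change -2.71), and MRPL3 had 49.7 and 50.4 CPM in GFP+ sBC and 260 and 290 CPM in hPSC (log2 fold change -2.46).

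The members that were not called lower were few, and apart from MRPL53 they were singled out after their values were seen. MRPL53, a mitochondria-specific large subunit protein, was the 1 member that rose, with 26.8 and 29.0 CPM in GFP+ sBC and 19.8 and 19.3 CPM in hPSC (log2 fold change 0.51, SE 0.18, adjusted p = 0.0414, edgeR). That call was lost when any 1 of the 4 libraries was left out. MRPS14, a small subunit head protein, had 26.4 and 30.6 CPM in GFP+ sBC and 27.3 and 27.5 CPM in hPSC (log2 fold change 0.05), and the libraries overlapped. MRPS5, at the mRNA entrance of the small subunit, had 46.2 and 48.0 CPM in GFP+ sBC and 46.8 and 50.7 CPM in hPSC (log2 fold change -0.05). The other 6 that were not called were MRPL22, MRPS35, MRPS36, MRPL33, MRPS33 and MRPL40, with log2 fold changes of -0.99 to -0.21. MRPL22 was among them although its 22.8 and 24.0 CPM in GFP+ sBC lay below the 44.6 and 48.4 CPM of hPSC. All 6 were lower in GFP+ sBC with no overlap of libraries. The spread in this fit came from all RNA libraries, including those of GFP- sBC, whose disagreement is given below. The same fit served RNA of GFP+ sBC against DE. The part of the GFP- libraries in the missing calls was not tested. A missing call here does not show that a member kept its level.

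FLAG footprints of GFP+ sBC against hPSC gave 60 members that fell and 1 that rose, against 28.5% and 30.4% of the 16018 genes tested. The median was -1.37 (all genes -0.01), and -1.28 with protein-coding nuclear genes alone in the fit (all genes 0.145). MRPS24, the small subunit's counterpart of bacterial uS3, had 1.30 and 4.35 CPM in GFP+ sBC and 13.7 and 33.8 CPM in hPSC (log2 fold change -3.06, SE 0.68, adjusted p = 0.00858, edgeR). It had the smallest counts of the members, and its gene overlaps a readthrough gene. MRPL10 had 11.7 and 6.25 CPM in GFP+ sBC and 62.1 and 82.0 CPM in hPSC (log2 fold change -3.01, SE 0.34, adjusted p = 0.000264, edgeR). MRPL12 had 10.1 and 10.2 CPM in GFP+ sBC and 64.6 and 75.8 CPM in hPSC (log2 fold change -2.79), and MRPL11 had 10.8 and 5.16 CPM in GFP+ sBC and 41.2 and 58.7 CPM in hPSC (log2 fold change -2.65). MRPS14 was the member that rose, with 54.4 and 53.4 CPM in GFP+ sBC and 32.2 and 36.4 CPM in hPSC (log2 fold change 0.65, SE 0.21, adjusted p = 0.0293, edgeR), a call that was lost when any 1 hPSC or sBC library was left out. RNA and FLAG footprints share no library, and across the 78 genes their changes had the same sign in 76, 74 of them lower in both (r 0.79, across genes). Over 13484 protein-coding genes r was 0.86.

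**Figure D3:**
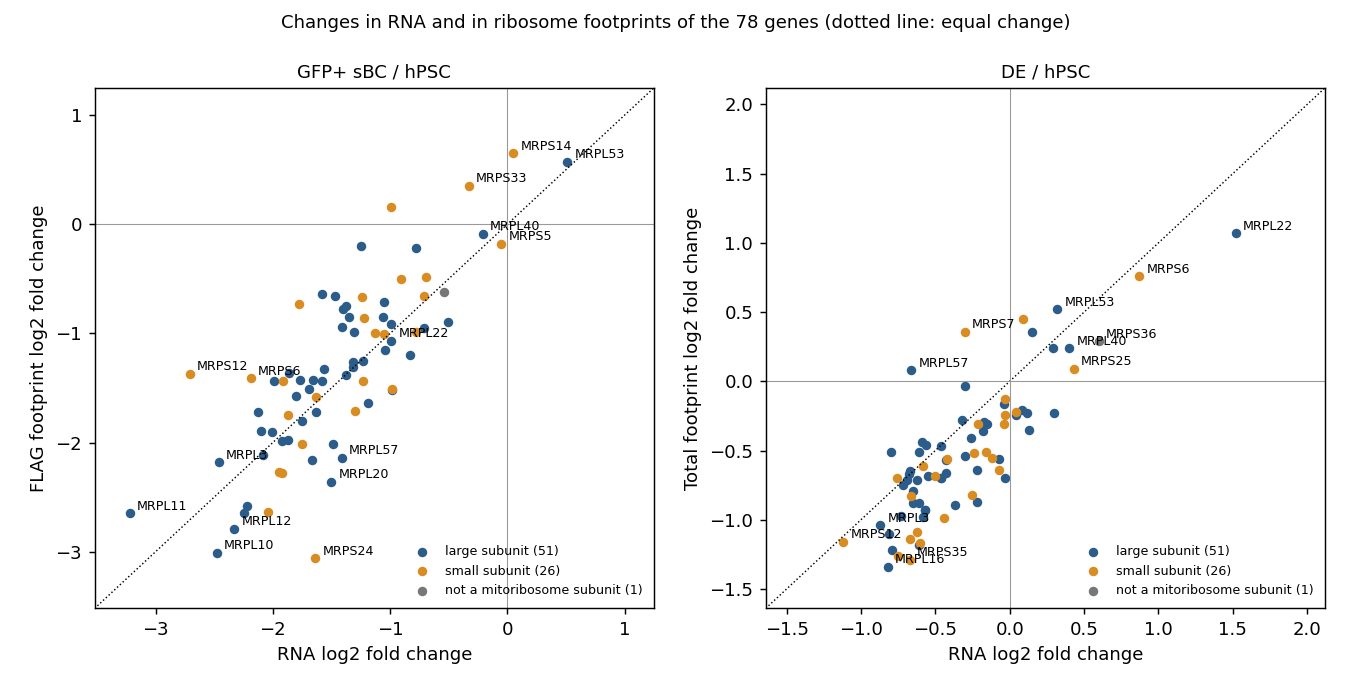
Each point is 1 of the 78 genes, with its log2 fold change in RNA on the x axis and in footprints on the y axis, for GFP+ sBC against hPSC with FLAG footprints (left) and DE against hPSC with total footprints (right). The dotted line marks equal change. Most points lie in the lower left part of both panels, and MRPL22 and MRPS6 lie at the upper right in DE.

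Members also fell in GFP+ sBC against DE, in RNA and in FLAG footprints. In RNA 58 members fell and none rose, against 30.9% and 29.9% of the 23321 genes tested, with a median of -1.14 (all genes 0.00, protein-coding nuclear genes -0.32). Of protein-coding nuclear genes 37.4% fell and 26.9% rose. MRPS6 had 19.9 and 18.4 CPM in GFP+ sBC and 149 and 162 CPM in DE (log2 fold change -3.02, SE 0.27, adjusted p = 8.51e-05, edgeR). MRPL22 had 22.8 and 24.0 CPM in GFP+ sBC and 120 and 137 CPM in DE (log2 fold change -2.47, SE 0.49, adjusted p = 0.00395, edgeR). Of the 9 genes that had risen in DE RNA 7 fell here, while MRPS36 (-1.09) and MRPL53 (0.24) did not pass the threshold. Both comparisons use the same DE libraries. For MRPS6 the order of the stages in RNA was therefore DE above hPSC above GFP+ sBC, with no overlap between neighbours. SLC5A3 did not follow MRPS6 here, with 74.9 and 60.5 CPM in GFP+ sBC and 64.7 and 67.8 CPM in DE. MRPL52, a mitochondria-specific large subunit protein, had 13.4 and 12.6 CPM in GFP+ sBC and 50.3 and 52.3 CPM in DE (log2 fold change -1.98). Without GFP+ sBC replicate 1, 37 members fell.

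In FLAG footprints of GFP+ sBC against DE 33 members fell and 3 rose, against 24.8% and 27.8% of the 16018 genes tested (median -0.76, all genes -0.03). MRPL57, a small mitochondria-specific large subunit protein, had 3.89 and 2.85 CPM in GFP+ sBC and 23.4 and 23.7 CPM in DE (log2 fold change -2.80, SE 0.40, adjusted p = 0.00097, edgeR). MRPL10 and MRPL4, a tunnel-wall protein, had log2 fold changes of -2.60 and -2.46. The 3 that rose were MRPS33, MRPS14 and MRPL24. MRPS14 had 54.4 and 53.4 CPM in GFP+ sBC and 26.0 and 26.4 CPM in DE (log2 fold change 1.04, SE 0.21, adjusted p = 0.00499, edgeR). MRPS33 had 46.4 and 34.4 CPM in GFP+ sBC and 9.54 and 21.8 CPM in DE (log2 fold change 1.35), and MRPL24 had 24.4 and 29.2 CPM in GFP+ sBC and 16.7 and 15.8 CPM in DE (log2 fold change 0.72). The call of MRPL24 was lost without the filter on low counts, and when replicate number was added to the fit. Without DE replicate 2, 5 members rose, and without DE replicate 1 or either sBC library, 1 rose.

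**Figure D4:**
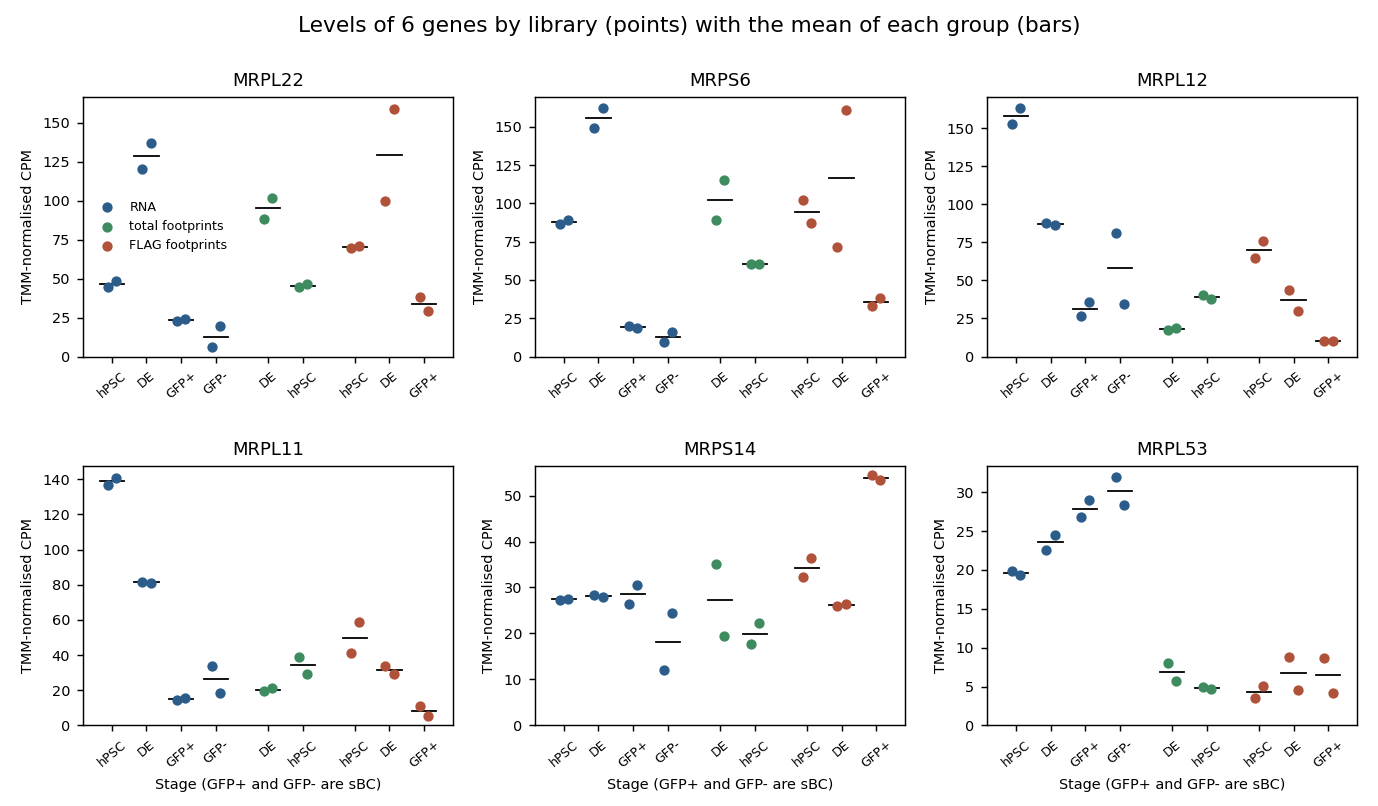
TMM-normalised CPM of 6 genes in every library, in RNA, total footprints and FLAG footprints, with the mean of each group as a bar and each axis starting at 0. MRPL22 and MRPS6 are highest in DE in RNA and total footprints, MRPL12 and MRPL11 fall with each stage in RNA, and MRPS14 is highest in the FLAG footprints of GFP+ sBC. Levels of different genes are not comparable here because they are not scaled by length.

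Where footprints and RNA changed by different amounts, the difference was tested as an interaction of assay and stage (the change in translational efficiency). In these fits the median of all genes depends on the scaling, and moved by -0.23 to 0.34 between scalings, so values are read against it. DE against hPSC gave no member past the threshold with either kind of footprint (edgeR; 5 members with FLAG and 7 with total footprints had an unadjusted p under 0.05, while DESeq2 called 1 higher and 2 lower with FLAG, and 2 higher and 4 lower with total footprints), against 0.167% and 0.314% of all genes. In GFP+ sBC against hPSC 2 members fell and none rose, against 3.98% and 11.0% of the 22210 genes tested. They were MRPL20 (-1.11, SE 0.29, adjusted p = 0.0269, edgeR), the counterpart of bacterial bL20, and MRPL45 (-0.74, SE 0.22, adjusted p = 0.046, edgeR), which tethers the mitoribosome to the inner membrane. MRPL20 had 17.4 and 16.3 CPM of FLAG footprints in GFP+ sBC and 77.2 and 96.1 CPM in hPSC, with 29.7 and 29.6 CPM of RNA in GFP+ sBC and 78.4 and 88.9 CPM in hPSC. MRPL45 had 12.1 and 12.4 CPM of FLAG footprints in GFP+ sBC and 53.5 and 55.9 CPM in hPSC, with 31.3 and 28.1 CPM of RNA in GFP+ sBC and 90.4 and 98.4 CPM in hPSC. For both genes the footprints were lower in sBC by more than the RNA was. Neither call held when replicate number was added to the fit.

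In GFP+ sBC against DE, 7 members fell and 1 rose in footprints over RNA, against 5.32% and 8.84% of all genes. MRPL57 had the largest change (-2.65, SE 0.41, adjusted p = 0.00208, edgeR): its RNA was 27.9 and 27.1 CPM in GFP+ sBC and 44.6 and 44.4 CPM in DE. MRPL57 has 8 annotated pseudogenes, and its smallest count in any library was 21. Its change of FLAG footprints over RNA in DE against hPSC was 1.66, the highest of the members and not called. The others that fell were MRPL20 (-1.64), MRPL4 (-1.38), MRPL10 (-1.17), MRPS34 (-1.11), MRPL45 (-0.92) and MRPL58 (-0.90), the last a peptidyl-tRNA hydrolase that rescues stalled mitoribosomes. The calls of MRPL10, MRPL45 and MRPL58, and that of MRPS15 given next, did not hold in every scaling, filter and replicate block setting. MRPS15, a small subunit protein with a bacterial counterpart, rose (0.96, SE 0.28, adjusted p = 0.0414, edgeR). In the same test all 4 proliferation markers rose (median 3.11 against DE and 3.05 against hPSC). Their sum was 71.5 and 23.9 CPM in FLAG footprints of GFP+ sBC and 5.65 and 2.34 CPM in its RNA. Mesenchyme markers (COL1A1, COL3A1 and SPARC) summed to 77.3 and 102 CPM in FLAG footprints and to 7.74 and 5.60 CPM in RNA of GFP+ sBC, and duct markers (SOX9, CFTR and KRT19) to 862 and 1060 CPM and to 180 and 298 CPM. None of these markers was at 0 in either assay of GFP+ sBC. The part of such cells in the members' footprints was not tested. Without sBC FLAG replicate 1 against DE 4 members fell, without either DE RNA library 2, and without GFP+ RNA replicate 2, 3. Without DE FLAG replicate 2, 9 members rose, and without DE FLAG replicate 1, 2. Without either RNA library of DE or GFP+ sBC, or without sBC FLAG replicate 1, none rose. Without hPSC FLAG replicate 1 against hPSC 12 fell, without sBC FLAG replicate 1 or 2, 9 and 6, and without any 1 of the RNA libraries of GFP+ sBC or hPSC, none.

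No member passed the threshold between the GFP+ and GFP- sorts. The summed level was 2027 and 2138 CPM in GFP+ sBC and 2114 and 2106 CPM in GFP- sBC, and the test called no member in either direction (edgeR; none had an unadjusted p under 0.05, and DESeq2 called none), against 2.43% of the 19797 genes tested. The median log2 fold change was -0.01, with MRPL12 (-0.89) the lowest and MRPL22 (0.87) the highest. Over the same sort all 4 proliferation markers were lower in GFP+ (median -4.42), at 5.65 and 2.34 CPM in GFP+ and 123 and 45.9 CPM in GFP-. Duct markers were 180 and 298 CPM in GFP+ and 1310 and 1250 CPM in GFP-. INS had 4400 and 4830 CPM in GFP+ and 1700 and 981 CPM in GFP-, and GCG had 30800 and 20200 CPM in GFP+ and 16600 and 10500 CPM in GFP-. NKX6-1, a beta cell transcription factor, had 107 and 115 CPM in GFP+ and 177 and 141 CPM in GFP-. None of the 6 beta cell markers, INS among them, and neither alpha cell marker passed the threshold in this test. The lack of called members therefore does not show that their levels were equal.

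The 2 GFP- libraries disagreed about the members. Set against the mean of GFP+, the log2 ratios of the 78 genes had an SD of 0.79 for GFP- replicate 1, from -1.37 (MRPL12) to 2.14 (MRPS36), and an SD of 0.14 for GFP- replicate 2, from -0.34 to 0.27. MRPL12 had 81.3 CPM in GFP- replicate 1 and 34.7 CPM in GFP- replicate 2, and MRPL22 had 5.80 CPM in replicate 1 and 19.7 CPM in replicate 2. All 78 ratios to GFP- replicate 2 lay within 0.5, while 38 of 78 ratios to GFP- replicate 1 lay beyond it. Without GFP- replicate 1, no member was called. Without GFP- replicate 2, 18 members were higher and 12 lower in GFP+.

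**Figure D5:**
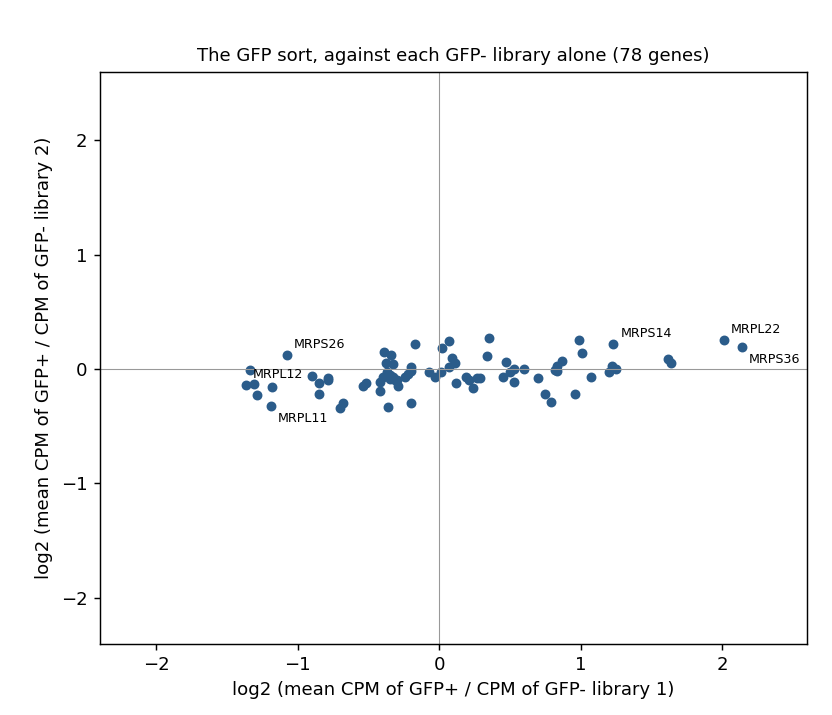
Each point is 1 of the 78 genes, with the log2 ratio of the mean GFP+ level to GFP- replicate 1 on the x axis and to GFP- replicate 2 on the y axis, both on the same range. The points spread from -1.37 to 2.14 along x and stay between -0.34 and 0.27 along y.

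The pull-down itself was compared with total footprints in the same stage. No member differed in hPSC or in DE (edgeR; 11 and 16 members had an unadjusted p under 0.05, while DESeq2 called 1 lower in hPSC and 4 higher in DE), against 1.15% and 0.863% of the 16679 genes tested. The members' medians were 0.08 in hPSC and 0.20 in DE. The 13 mitochondrially encoded mRNAs, which are not read by RPL22-bearing ribosomes, had medians of -3.39 in hPSC, with 9 lower, and -2.82 in DE, with 5 lower.

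Most genes of both subunits fell. In GFP+ sBC against hPSC in RNA, 47 of 51 large subunit genes and 22 of 26 small subunit genes fell, with medians of -1.49 and -1.23. Genes with a bacterial counterpart fell in 41 of 45 and mitochondria-specific genes in 25 of 29, with medians of -1.63 and -1.32. The share of member counts held by large subunit genes was 61.83% and 62.11% in GFP+ sBC RNA and 65.72% and 65.93% in hPSC RNA. In DE against hPSC the medians were -0.46 for large and -0.28 for small subunit genes. These differences between classes were not tested. The 3 paralogs of bacterial bS18 differed: in RNA of GFP+ sBC against hPSC, MRPS18A fell by 1.58, MRPS18B by 0.71 and MRPS18C by 1.23 on the log2 scale. MRPL36, the counterpart of bacterial bL36, fell by 1.80, MRPL58 by 2.22, MRPL45 by 1.67 and MRPS30 by 1.32.

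The ratio of footprint CPM to RNA CPM, not scaled by length, lay above the protein-coding median for most members. With total footprints this held for 60 of the 78 genes in hPSC and 64 in DE. With FLAG footprints of GFP+ sBC it held for 57. In hPSC the log2 ratio of total footprint CPM to RNA CPM had a median of -0.74 over the 78 genes and of -1.68 over 10440 protein-coding genes with at least 1 CPM. In DE the medians were -0.89 and -1.79, and for FLAG footprints of GFP+ sBC -0.08 and -0.88. Footprints come from coding sequence and RNA counts from whole transcripts, and lengths were not used here. In hPSC the lowest ratios were those of MRPL34 (-3.11), MRPS12 (-2.84) and MRPS24 (-2.36). The highest were those of MRPL23 (0.88), MRPS18C (0.74) and MRPL54 (0.56). In RefSeq, MRPL23 spans the locus of the noncoding RNA H19, which had 172 and 163 CPM in GFP+ sBC RNA and 4030 and 965 CPM in GFP- sBC RNA, while MRPL23 averaged 15.5 ± 3.59 CPM in GFP+ and 27.7 ± 15.1 CPM in GFP- (SD, n = 2 each).

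Other genes of mitochondrial translation also fell in part, in RNA of GFP+ sBC against hPSC, where 30.9% of all genes fell and 30.4% rose. Of 6 genes, for other mitoribosome proteins and for the inner membrane insertase OXA1L, 5 fell and none rose (median -1.07). DAP3, a GTP-binding small subunit protein, was among those that fell (log2 fold change -0.59), and OXA1L was not called (-0.28). Of 23 assembly factors 13 fell and none rose (median -1.06). Of 16 mitochondrial translation factors 10 fell and 1 rose (median -0.77). The elongation factor TUFM fell in RNA (-1.21, SE 0.19, adjusted p = 0.00122, edgeR) and did not pass the threshold in FLAG footprints (-0.39, SE 0.20, adjusted p = 0.136, edgeR), and the elongation factor GFM1 rose (1.46, SE 0.27, adjusted p = 0.00261, edgeR), in FLAG footprints too (2.26, SE 0.24, adjusted p = 0.000191, edgeR). Of 15 genes of mitochondrial transcription and its regulation 10 fell and 2 rose (median -1.26). TFAM, which packages mitochondrial DNA and helps to start its transcription, fell by 2.71 on the log2 scale in RNA and by 2.65 in FLAG footprints. MYC, a growth regulator, fell by 5.32 and 4.13. The coactivator PPARGC1A rose by 1.47 in RNA and 1.75 in FLAG footprints. In RNA of DE against hPSC 36.8% of all genes fell and 38.7% rose. There 4 of the 6 genes of other mitoribosome proteins and OXA1L fell and none rose, and of the 23 assembly factors 17 fell and 3 rose. Of the 16 translation factors 7 fell and 4 rose, and of the 15 transcription genes 9 fell and 3 rose.

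Of the 13 mitochondrially encoded mRNAs, which the mitoribosome translates, 5 rose and none fell in RNA of GFP+ sBC against hPSC (median 1.97), where 30.4% of all genes rose. Against DE 7 rose and none fell (median 2.26), where 29.9% of all genes rose. Their sum was 45500 and 34100 CPM in GFP+ sBC, 7790 and 5820 CPM in DE, and 8540 and 10500 CPM in hPSC. The GFP- libraries had 3610 and 34800 CPM, the lower value in replicate 1.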

How the data were processed

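The deposited table holds estimated counts per gene for 18 libraries, 2 in each of 9 groups. Per the submitters' processing notes, Salmon, DESeq2, UMI-tools, cutadapt and Bowtie were used with GRCh38, and the annotation release is not given in the sources used here. Between 16.8% and 31.3% of a library's values, zeros included, were not whole, and the deposited expected counts were rounded to whole numbers before testing. Of the 57808 gene identifiers 57030 (98.7%) were matched to a symbol.

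Tests were edgeR's quasi-likelihood test (edgeR 4.0.16, limma 3.58.1, R 4.3.3) with TMM normalisation and filterByExpr, in 8 fits of 4, 6, 8 or 12 libraries that gave 14 comparisons. P-values were adjusted over all genes of a comparison by Benjamini-Hochberg, with 0.05 as the threshold. The change of footprints over RNA was the interaction of assay and stage. Alternatives were DESeq2 1.42.0, its size factors within edgeR, no filter, protein-coding nuclear genes alone, a replicate block and each library of the compared groups left out. A fit of all 8 RNA libraries was an alternative for DE against hPSC and for the sort. It was the main fit for RNA of GFP+ sBC against hPSC and DE, where no GFP- library was left out. Summaries and figures used Python 3.11.15, pandas 2.3.3, numpy 2.4.6 and matplotlib 3.10.9.

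The tests were checked on simulated data with known changes. Of these the tests of footprints over RNA recovered far fewer than the tests within 1 assay. Few calls over RNA therefore do not show that members kept their ratio. The simulation used 1 spread for all fits and not that of the real libraries. It does not show how many true changes the tests within 1 assay would find, the sort included. The members, gene lists and comparisons were chosen with earlier results of these data known. Named genes were, per comparison and direction, up to 4 members past the threshold with the largest change and no overlap of libraries, a fixed set by role, and the extremes of footprints over RNA in hPSC. Others are said to be chosen after their values were seen. The labels' cell line field reads undifferentiated for all libraries, so groups were taken from the cell type, genotype and library type. Counting error limits the shallow FLAG libraries most.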

Additional observations from a re-analysis of the deposited data

Results flagged for a closer look

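In 10 cases the change between stages differed between footprints and RNA by a test of that difference (edgeR interaction, adjusted p under 0.05). In GFP+ sBC against hPSC these were MRPL20 with -1.11 and MRPL45 with -0.74 on the log2 scale. In GFP+ sBC against DE they were MRPL57 with -2.65, MRPL20 with -1.64, MRPL4 with -1.38, MRPL10 with -1.17, MRPS34 with -1.11, MRPL45 with -0.92, MRPL58 with -0.90 and MRPS15 with 0.96. Both calls against hPSC were lost with the replicate block, as were MRPL10, MRPL58 and MRPS15 against DE. Against DE, MRPL10, MRPL45 and MRPL58 were lost with protein-coding nuclear genes alone. MRPL10 and MRPL58 were lost with DESeq2's size factors, and MRPL45 and MRPL58 without the filter. Over all genes tested 15.0% were called in either direction against hPSC and 14.2% against DE, against 2 and 8 of the 78 members. The genotype labels of the sBC footprint and RNA libraries differ, as do the marker levels given with the result.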

How the results depend on the processing

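The members' medians in the 7 comparisons of stages within 1 assay were below 0 in every setting run. In the fit of all 8 RNA libraries, DE against hPSC had 6561 genes called, 1 member higher, 17 lower and a median of -0.48, and the sort had 1263 genes called. DESeq2 called 1263 genes in the sort, in footprints over RNA 752 (FLAG, DE against hPSC), 1434 (total), 5214 (sBC against hPSC) and 4794 (sBC against DE), and in FLAG against total footprints 735 in hPSC and 1035 in DE. By DESeq2, members higher were 1 (FLAG, DE against hPSC), and over RNA 1, 2 and 6 (FLAG and total DE, sBC against DE), and 4 in FLAG against total in DE. Members lower were 2, 4 and 13 over RNA (FLAG and total DE, sBC against hPSC) and 1 in FLAG against total in hPSC. Its medians were -1.04 (RNA, sBC against DE), -0.23, against 0.01 with edgeR (FLAG over RNA, DE), -0.16 (total over RNA) and -0.32 (sBC against hPSC over RNA). With DESeq2's size factors in edgeR, these medians were -1.04, -0.23, -0.17 and -0.32, 44 genes were called for total over RNA, 1 member was higher in FLAG footprints of DE, and 4 were lower over RNA in sBC against hPSC. Without the filter, 1596 genes were called in the sort, 69 and 191 over RNA in DE (FLAG, total), and 958 and 1526 in FLAG against total (hPSC, DE). Members higher were then 1 in FLAG DE, 0 in RNA and 0 in FLAG of sBC against hPSC, 1 in total over RNA and 4 in FLAG against total in DE, and 1 was lower in FLAG against total in hPSC. The medians over RNA were -0.30 (FLAG, DE) and -0.39 (sBC against hPSC), and MRPS5 in RNA of sBC against hPSC was 0.02. With protein-coding nuclear genes alone, 17 and 187 genes were called over RNA in DE, and 82 and 52 in FLAG against total (hPSC, DE). Members higher were 1 (FLAG, DE), 2 (RNA, sBC against DE), and over RNA 1 (total, DE), 1 (sBC against hPSC) and 5 (sBC against DE, with 4 lower). The medians were -1.11 and -0.86 in RNA of sBC against hPSC and DE, and over RNA -0.21 (FLAG, DE) and 0.05 (sBC against DE). MRPL40 and MRPS5 in RNA of sBC against hPSC were 0.09 and 0.25. The same-numbered libraries were not taken as pairs, since their deviations correlated by 0.099 (sort), 0.075 (RNA), -0.14 (total) and -0.225 (FLAG) for DE with hPSC, and by -0.052 to 0.036 for sBC with DE or hPSC. Between assays of a stage they correlated by 0.162 (RNA with FLAG, sBC), 0.043 (DE) and 0.139 (hPSC), by 0.075 (RNA with total, DE) and 0.126 (hPSC), and by 0.151 (total with FLAG, DE) and -0.177 (hPSC), with 1 pair of deviations per comparison and no label that ties the numbers. With the replicate block, 1258 genes were called in the sort, 9 and 0 over RNA in DE (FLAG, total) and 67 in FLAG against total in hPSC. Under the block, total footprints of DE had 1 member higher and 22 lower, FLAG footprints of DE 10 lower, and sBC against hPSC 0 higher in RNA and 0 in FLAG. Over RNA it left 0 lower against hPSC (MRPL20 and MRPL45 not called) and 0 higher against DE (MRPS15, and of the lower MRPL10 and MRPL58, not called). With the numbers of the DE total footprints exchanged, a pairing chosen after seeing the data, 38 members fell and 2 rose. The cause of these changes was not tested.

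Leaving out 1 library of the compared groups at a time gave these ranges, for genes called, members higher, members lower and median. DE against hPSC had 13960 to 14182, 8 to 9, 48 to 55 and -0.45 to -0.37 in RNA, 73 to 5782, 0 to 3, 0 to 37 and -0.64 to -0.53 in total footprints, and 1097 to 3144, 0 to 1, 1 to 24 and -0.66 to -0.48 in FLAG footprints. GFP+ sBC against hPSC had 10052 to 11391, 0 to 0, 47 to 58 and -1.45 to -1.30 in RNA, and 6801 to 7949, 0 to 0, 42 to 52 and -1.48 to -1.30 in FLAG footprints. Against DE it had 9609 to 11021, 0 to 0, 37 to 44 and -1.19 to -1.07 in RNA, and 6757 to 7316, 1 to 5, 23 to 40 and -0.91 to -0.58 in FLAG footprints. The sort had 384 to 7815, 0 to 18, 0 to 12 and -0.09 to 0.02. Over RNA, DE had 1 to 1730, 0 to 1, 0 to 19 and -0.42 to 0.04 with FLAG, and 0 to 3906, 0 to 1, 0 to 29 and -0.46 to 0.02 with total footprints. Over RNA, sBC had 1748 to 3275, 0 to 1, 0 to 12 and -0.52 to -0.13 against hPSC, and 1443 to 3592, 0 to 9, 2 to 8 and -0.29 to -0.03 against DE. FLAG against total had 18 to 57, 0 to 0, 0 to 0 and 0.01 to 0.18 in hPSC, and 36 to 332, 0 to 1, 0 to 0 and 0.10 to 0.30 in DE. The FLAG median over RNA in DE turned to -0.16 and -0.42 without DE FLAG 1 and 2 and to -0.31 and -0.22 without hPSC FLAG 1 and 2, and the total one to 0.02 without hPSC RNA 1. MRPS6 in FLAG footprints of DE ranged over -0.42 (without DE FLAG 2) to 0.78, MRPL53 in FLAG footprints of sBC against hPSC over -0.06 (without sBC FLAG 1) to 0.98, and MRPS5 in RNA of sBC against hPSC over -0.12 to 0.08, with 0.08 and 0.00 without GFP+ 1 and 2. Where an arm was left with 1 library, that library was assumed to vary like the others.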
